A study of Mus musculus with 4 samples.

Results

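The genes described here are 7 cytokine genes of the 27998 genes in the count matrices: Tnf, Il1a, Il1b, the IL-1 receptor antagonist Il1rn, Il6, Osm and Tnfsf9. They were taken by name, with their raw UMIs (molecular tags that count each captured transcript once), from single-cell libraries of mouse microglia, the resident macrophages of the brain. C57BL/6 mice received a single whole-brain dose of 8 Gy at postnatal day 21 or a sham procedure without a dose. The 4 groups were irradiated mice at 6 h, sham mice at 6 h, irradiated mice at 1 week and sham mice at 1 week, and each group was 1 droplet library (10x Genomics Chromium) pooled from 4 mice. The source label gives brain and the design text speaks of the hippocampus, so the region is not settled here. The question given for the single-cell libraries was whether transcripts sit in the same cells or mark different kinds of microglia.

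TNF and the interleukin 1 proteins are cytokines that macrophages release early in inflammation, and both drive NF-kB and MAP kinase signalling in the cells that carry their receptors. IL-1 alpha and IL-1 beta act through the same receptor, which IL-1 receptor antagonist occupies without signalling. IL-6 and oncostatin M signal through receptors that share the subunit gp130, and the 4-1BB ligand Tnfsf9 is a membrane protein of the TNF superfamily known for co-stimulating T cells. Several of these transcripts are short-lived, and some are known to rise in microglia when brain tissue is dissociated.

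After filtering, 1986 irradiated and 2652 sham cells were used at 6 h, and 2149 irradiated and 1582 sham cells at 1 week, with 5675117 to 9736149 UMIs per library and a median of 3437 to 3594 UMIs per cell. The microglia markers P2ry12, Tmem119 and Cx3cr1 each had a UMI in 95.2% to 99.9% of the cells of every library. Cdkn1a, a p53 target that rises after DNA damage, had 2944 CPM (UMIs scaled to 1000000 UMIs of the library) in irradiated and 52.2 CPM in sham cells at 6 h, and 2206 CPM in irradiated and 56.7 CPM in sham cells at 1 week. The sham libraries were not alike: of 9728 genes, 7.78% differed by at least 1.5-fold between them, and the summed level of 20 immediate early and dissociation genes was 13620 CPM in sham cells at 1 week and 9351 CPM in sham cells at 6 h. In the irradiated libraries that sum was 8035 CPM at 6 h and 11536 CPM at 1 week. Age, library and time cannot be told apart between the sham libraries, so each irradiated library is given over both of them. A total of 41 barcode sequences occurred in more than 1 library.

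Each group being 1 library, no test could be made and no replicate check exists. Intervals in parentheses are exact 95% intervals and cover counting error only. A gene is said to have risen or fallen where its CPM differed by at least 1.5-fold and it had at least 50 UMIs over both libraries. For genes well under 1 UMI per cell, the share of cells with a UMI follows the level and the depth, so more cells with a transcript and more transcript per cell cannot be told apart.

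The 7 genes lie on 4 chromosomes of GRCm38 (mm10, GENCODE vM21). Tnf spans chr17:35199381-35202007 on the minus strand, and Tnfsf9 spans chr17:57105325-57107757 on the plus strand. Il1a (chr2:129299610-129309972, minus strand) and Il1b (chr2:129364570-129371139, minus strand) are neighbours, and Il1rn lies on the same chromosome at chr2:24336853-24351494 on the plus strand. Il6 spans chr5:30013114-30019981 and Osm spans chr11:4236420-4241026, both on the plus strand. Il1a, Il1b and Tnfsf9 overlap the annotated genes Gm14023, Il1bos and Gm11110 on the opposite strand. How strand was used in counting is not given in the sources used here, so reads of such a pair cannot be told apart.

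The 250 bases before the first start site are shown for Tnf and Il1b, which rose at 6 h over their sham, and for Il1a and Il6, which did not (RefSeq, GRCm38.p6, 5′ to 3′ on the strand of the gene). Capitals mark matches to a TATA box (TATAAA), an AP-1 element (TGANTCA), the kB consensus, a cAMP response element (TGACGTCA) or a p53 half-site, searched on both strands. The stretches are chr17:35202008-35202257 for Tnf, chr2:129371140-129371389 for Il1b, chr2:129309973-129310222 for Il1a, all on the minus strand, and chr5:30012864-30013113 for Il6 on the plus strand.
Tnf: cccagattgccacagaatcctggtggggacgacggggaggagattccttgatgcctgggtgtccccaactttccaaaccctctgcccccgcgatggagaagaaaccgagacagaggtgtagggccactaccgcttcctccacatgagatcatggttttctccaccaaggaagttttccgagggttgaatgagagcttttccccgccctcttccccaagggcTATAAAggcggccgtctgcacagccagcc
Il1b: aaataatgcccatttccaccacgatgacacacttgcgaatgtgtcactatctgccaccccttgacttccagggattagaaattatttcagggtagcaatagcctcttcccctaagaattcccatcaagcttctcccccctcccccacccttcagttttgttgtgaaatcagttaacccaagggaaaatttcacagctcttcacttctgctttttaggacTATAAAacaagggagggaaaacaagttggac
Il1a: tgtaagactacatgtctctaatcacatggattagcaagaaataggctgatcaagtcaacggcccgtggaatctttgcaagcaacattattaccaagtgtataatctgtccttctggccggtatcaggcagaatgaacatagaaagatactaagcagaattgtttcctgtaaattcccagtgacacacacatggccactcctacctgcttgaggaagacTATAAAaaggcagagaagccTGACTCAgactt
Il6: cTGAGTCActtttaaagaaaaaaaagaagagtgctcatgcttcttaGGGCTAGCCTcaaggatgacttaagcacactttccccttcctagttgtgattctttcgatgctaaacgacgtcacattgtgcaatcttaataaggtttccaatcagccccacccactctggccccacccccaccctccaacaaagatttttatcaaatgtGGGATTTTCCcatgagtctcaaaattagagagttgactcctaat
A TATA box stood 29 to 24 bases before the start of Tnf, 31 to 26 before Il1b and 32 to 27 before Il1a, and 12.4% of 32841 promoters of the same length hold one somewhere. Il1a also had the AP-1 element TGACTCA 12 to 6 bases before the start, and Il6 had an AP-1 element at 249 to 243 bases, an element held by 6.75% of all promoters. Il6 had a kB consensus match 44 to 35 bases before the start (3.90% of promoters) and a p53 half-site 204 to 195 bases before it (7.13% of promoters). These are matches of letters and not measured sites, and a stretch with no match says only that the letters are not in that window.

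At 6 h, 4 of the 6 genes with enough UMIs rose in irradiated cells over sham cells: Tnf, Il1b, Osm and Tnfsf9. None of the 6 fell. Of all 9934 genes measured in that comparison, 8.97% rose and 9.31% fell (18.3% either way). The median log2 fold of the 6 genes was 1.66, and that of all genes was -0.06. Il1rn, with 38 UMIs in the 4 libraries together, had too few for a call.

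At 1 week, 2 of 6 genes rose in irradiated cells over sham cells, Il6 and Tnfsf9, and Il1b fell, while 4.01% of 9518 genes rose and 3.12% fell (7.13% either way). The median log2 fold of the 6 genes was 0.44, against 0.04 for all genes. The choice of sham library mattered. Over the sham library at 1 week, the irradiated library at 6 h had 2 genes higher (Osm and Tnfsf9) and 1 lower (Il1a), with 11.8% of all genes higher and 9.51% lower (21.3% either way). Over the sham library at 6 h, all 6 measured genes were higher in the irradiated library at 1 week, where 3.81% of all genes were higher, 4.83% were lower and 8.64% differed either way.

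**Figure D1:**
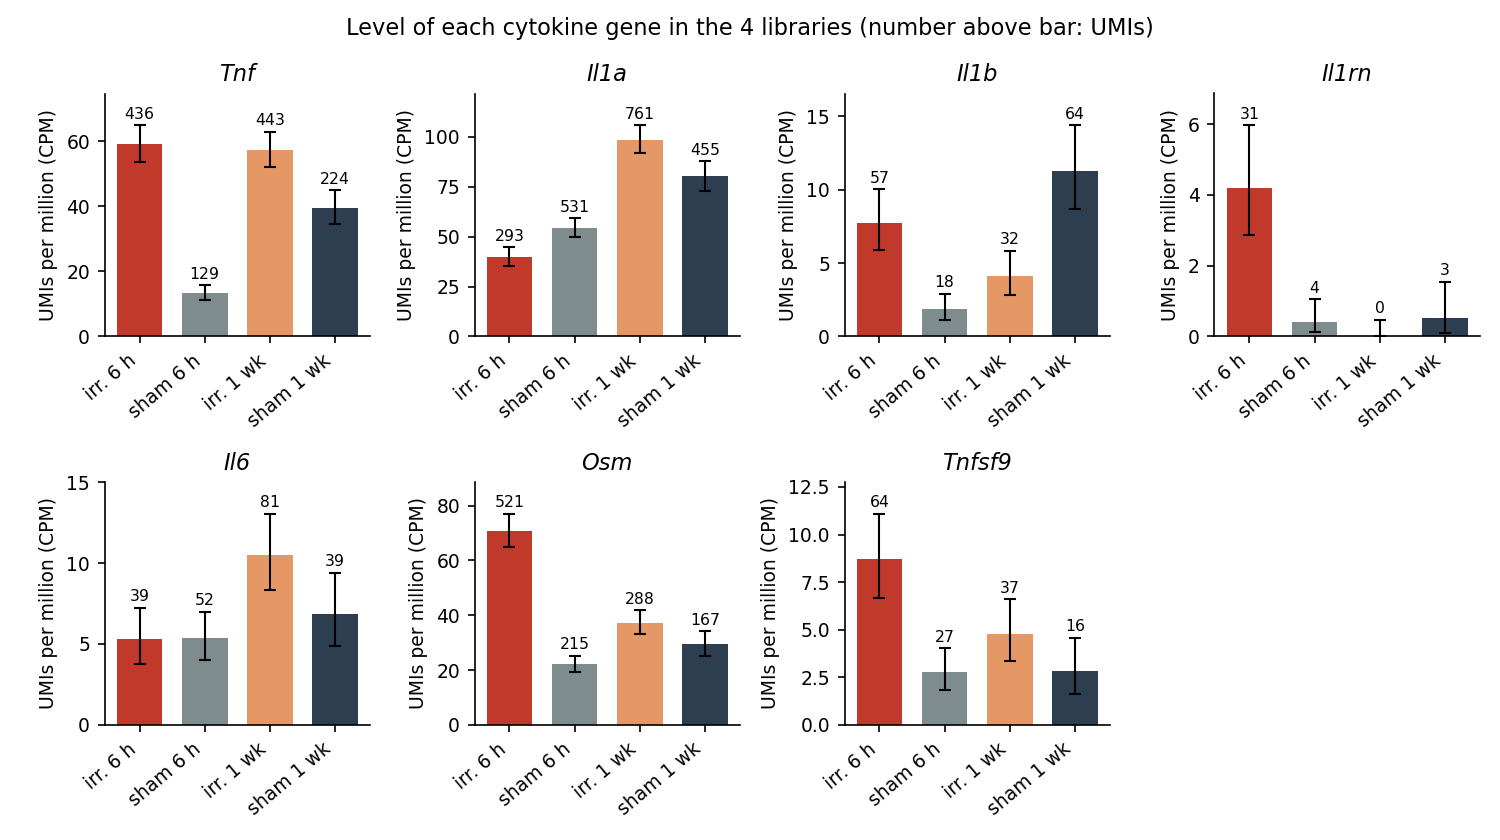
Level of each cytokine gene in CPM (vertical axis, a separate scale for each gene) in the 4 libraries, 1 bar per library, with exact Poisson 95% intervals and the number of UMIs above each bar. Tnf stood at 59.2 and 57.4 CPM in the irradiated libraries and at 13.2 and 39.5 CPM in the sham libraries, and Il1b was highest in the sham library at 1 week with 11.3 CPM.

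Tnf encodes the trimeric cytokine TNF, which is made as a membrane protein and shed by the protease ADAM17. It had 59.2 CPM (436 UMIs) in irradiated cells at 6 h and 13.2 CPM (129 UMIs) in sham cells at 6 h. It had 57.4 CPM (443 UMIs) in irradiated cells at 1 week and 39.5 CPM (224 UMIs) in sham cells at 1 week. Both irradiated libraries stood above both sham libraries, and the irradiated libraries overlapped in their counting intervals (53.8 to 65.0 CPM at 6 h, 52.2 to 63.0 CPM at 1 week). The log2 fold at 6 h was 2.16 (1.87 to 2.45), a 4.47-fold rise. At 1 week it was 0.54 (0.31 to 0.78), or 1.45-fold, under the threshold.

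The value for Tnf depended on the sham library. It rose in sham cells at 1 week over sham cells at 6 h, with a log2 fold of 1.57 (1.26 to 1.90). Over the other sham library, the log2 fold was 0.58 (0.35 to 0.82) for irradiated cells at 6 h, just under the threshold, and 2.12 (1.83 to 2.41) for irradiated cells at 1 week. Between the sham libraries 2 of 5 measured genes rose, Tnf and Il1b, and none fell, where 2.89% of 9728 genes rose and 4.89% fell. The immediate early and dissociation genes moved with Tnf there: 10 of 20 rose and none fell in sham cells at 1 week over sham cells at 6 h, among them Ier3 with a log2 fold of 1.42 and Atf3 with 1.14, and their part in the result was not tested. At 6 h, where Tnf differed most between irradiated and sham cells, 1 of these 20 genes rose (Atf3, with a log2 fold of 1.60) and 6 fell. Of all genes, 8.97% rose and 9.31% fell at that time.

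Osm encodes oncostatin M, which signals through gp130 together with the oncostatin M receptor. It had 70.7 CPM (521 UMIs) in irradiated cells and 22.1 CPM (215 UMIs) in sham cells at 6 h, and 37.3 CPM (288 UMIs) in irradiated cells and 29.4 CPM (167 UMIs) in sham cells at 1 week. The irradiated library at 6 h stood clear of the other 3. The log2 fold was 1.68 (1.45 to 1.92) at 6 h and 0.34 (0.06 to 0.63) at 1 week, the second under the threshold. The rise at 6 h also held over the sham library at 1 week, with a log2 fold of 1.27 (1.01 to 1.53).

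Tnfsf9 followed the same order with fewer UMIs: 8.69 CPM (64 UMIs) in irradiated cells and 2.77 CPM (27 UMIs) in sham cells at 6 h, and 4.80 CPM (37 UMIs) in irradiated cells and 2.82 CPM (16 UMIs) in sham cells at 1 week. The sham libraries were nearly equal for this gene. Its log2 fold was 1.65 (0.98 to 2.35) at 6 h, and 1.62 (0.82 to 2.51) over the other sham library. At 1 week it was 0.77 (-0.12 to 1.71), past the threshold but with an interval that holds 0.

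**Figure D2:**
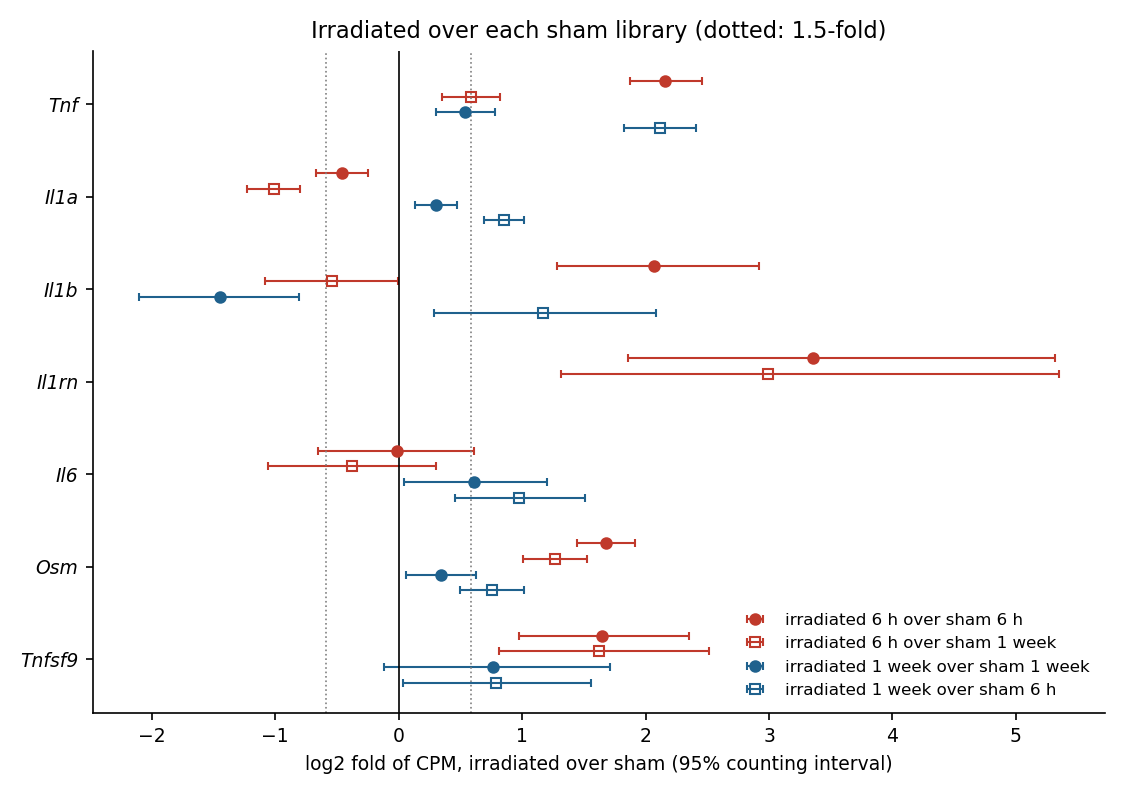
Log2 fold of CPM (horizontal axis) of each cytokine gene in the irradiated libraries, over the sham library of the same time (filled) and of the other time (open), with exact 95% counting intervals and dotted lines at 1.5-fold. Osm and Tnfsf9 at 6 h stood past 1.5-fold over both sham libraries, whereas Il1b changed sign with the sham library, and Il1rn has no point at 1 week because the irradiated library held 0 UMIs of it.

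Il1a encodes IL-1 alpha, which is active as a precursor and can be released from damaged cells. It had 39.8 CPM (293 UMIs) in irradiated cells and 54.5 CPM (531 UMIs) in sham cells at 6 h, and 98.6 CPM (761 UMIs) in irradiated cells and 80.2 CPM (455 UMIs) in sham cells at 1 week. The libraries split by time, with both at 1 week above both at 6 h. Within a time the difference stayed under the threshold, with a log2 fold of -0.46 (-0.67 to -0.25) at 6 h and 0.30 (0.13 to 0.47) at 1 week. Between the sham libraries, 1 week over 6 h, it was 0.56 (0.37 to 0.74). Over the sham library of the other time, Il1a fell in irradiated cells at 6 h, by 1.01 on the log2 scale, and rose in irradiated cells at 1 week, with a log2 fold of 0.85.

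Il1b encodes IL-1 beta, whose precursor is cut by caspase-1 in the inflammasome. It had 7.74 CPM (57 UMIs; 5.86 to 10.0 CPM) in irradiated cells and 1.85 CPM (18 UMIs; 1.10 to 2.92 CPM) in sham cells at 6 h. At 1 week it had 4.15 CPM (32 UMIs; 2.84 to 5.85 CPM) in irradiated cells and 11.3 CPM (64 UMIs; 8.68 to 14.4 CPM) in sham cells. The order was reversed between the times: higher in irradiated cells at 6 h, with a log2 fold of 2.07 (1.28 to 2.92), and lower in irradiated cells at 1 week, with a log2 fold of -1.44 (-2.10 to -0.81). Both signs turned over the sham library of the other time, with -0.54 (-1.08 to -0.01) at 6 h and 1.17 (0.29 to 2.09) at 1 week.

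The Il1b counts rested on a handful of cells. Of 57 UMIs in irradiated cells at 6 h, 38 lay in the 5 cells with 3 or more, and the fullest cells held 14 and 12. Of 64 UMIs in sham cells at 1 week, 46 lay in 7 such cells, the fullest with 15 and 11. In irradiated cells at 1 week 1 cell held 16 of 32 UMIs, whereas in sham cells at 6 h no cell held more than 3.

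Counting at most 1 UMI per cell, the log2 fold at 6 h was 0.86 (-0.13 to 1.89), and that at 1 week was -1.20 (-2.31 to -0.15), on 13 irradiated and 22 sham cells with a UMI. Both stayed past 1.5-fold, on fewer than the 50 UMIs a call needed, and the interval at 6 h held 0. Of the 15 cells with 3 or more Il1b UMIs over the 4 libraries, 1 was poor in microglia markers. In the other 14, 2.65% to 7.27% of all UMIs came from the 9 microglia markers. Of these 14, 1 held monocyte marker UMIs, 3 of Plac8, and 8 held 1 or 2 UMIs of the neutrophil markers. Over whole libraries the 8 neutrophil markers summed to 153 to 177 CPM, but S100a8, S100a9, Ly6g and Retnlg were at 0 in all 4. Csf3r alone held 98.4% to 98.9% of these UMIs. Of all cells of a library, 40.3% to 46.7% had a UMI of the neutrophil markers, so such UMIs do not set the Il1b-rich cells apart. The 7 monocyte markers summed to 10.9 to 37.5 CPM, with Ly6c2 at 0 in all 4.

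Il1rn, the antagonist, had 31 UMIs in irradiated cells and 4 in sham cells at 6 h, and 0 in irradiated cells and 3 in sham cells at 1 week. No fold is given at 1 week, where both libraries stood at or under 3 counts. A single cell held 17 of the 31 UMIs in irradiated cells at 6 h, and the other 10 positive cells of that library held 1 or 2 each.

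Il6 had 5.29 CPM (39 UMIs) in irradiated cells and 5.34 CPM (52 UMIs) in sham cells at 6 h, with a log2 fold of -0.01 (-0.65 to 0.61). At 1 week it had 10.5 CPM (81 UMIs) in irradiated cells and 6.87 CPM (39 UMIs) in sham cells, with a log2 fold of 0.61 (0.04 to 1.20), a 1.53-fold rise just past the threshold. The irradiated library at 1 week was the highest of the 4. This rise dropped under the threshold when 54 doublets called by Scrublet were left out (0.57).

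A Tnf UMI was found in 234 of 1986 irradiated cells (11.8%, 10.4 to 13.3) and in 87 of 2652 sham cells (3.28%, 2.64 to 4.03) at 6 h. At 1 week it was found in 244 of 2149 irradiated cells (11.4%, 10.0 to 12.8) and in 116 of 1582 sham cells (7.33%, 6.10 to 8.73). With every cell thinned to 2000 UMIs, and cells under that depth left out (90, 93, 109 and 189 in the order above), the shares were 6.70% and 1.72% at 6 h and 7.35% and 4.88% at 1 week, again irradiated before sham.

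Per positive cell, Tnf had a mean of 1.86 UMIs in irradiated and 1.48 in sham cells at 6 h, and 1.82 in irradiated and 1.93 in sham cells at 1 week. As a background, 30 barcodes of the irradiated library at 6 h were poor in microglia markers, at a median of 1675.5 UMIs against 3512.5 for all its cells, and 1 of them (3.33%, 0.0844 to 17.2) had a Tnf UMI. The other libraries held 11, 3 and 1 such barcodes, none with a Tnf UMI. The interval of the irradiated library at 6 h holds its Tnf share of 11.8%, which is thus not read as above background.

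Osm had a UMI in 15.8% of irradiated and 6.98% of sham cells at 6 h, and in 10.4% of irradiated and 8.41% of sham cells at 1 week. Thinned, its shares were 9.55% and 4.14% at 6 h and 6.27% and 4.45% at 1 week, irradiated before sham, and 2 of the 30 marker-poor barcodes (6.67%) had an Osm UMI. Il1a had a UMI in 12.6% of irradiated and 16.5% of sham cells at 6 h, and in 25.9% of irradiated and 21.8% of sham cells at 1 week. Its thinned shares were 7.59% and 10.0% at 6 h and 16.3% and 13.8% at 1 week, irradiated before sham, so the order of the CPM values was kept. None of the 30 marker-poor barcodes had an Il1a UMI (upper limit 11.6%). Of the 11 in the sham library at 6 h, 1 had an Il1a UMI and 1 an Osm UMI (9.09% each, 0.230 to 41.3). That interval holds the shares of both genes in that library, 6.98% for Osm and 16.5% for Il1a. In irradiated cells at 6 h, the marker-poor interval for Osm (0.818 to 22.1) likewise holds its share of 15.8%. None of these shares is read as above background. The few marker-poor barcodes in the libraries at 1 week had no UMI of Osm or Il1a.

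The rarer genes had a UMI in few cells of any library. Il6 was found in 1.81% of irradiated and 1.81% of sham cells at 6 h, and in 3.68% of irradiated and 2.15% of sham cells at 1 week. Tnfsf9 was found in 2.97% of irradiated and 0.943% of sham cells at 6 h, and in 1.58% of irradiated and 0.948% of sham cells at 1 week. Il1b was found in 0.603% to 1.39% of cells, below the 3 of 30 marker-poor barcodes (10.0%, 2.11 to 26.5) of the irradiated library at 6 h, with 0 of 11 in the sham library at 6 h, so its shares are not read as a difference between groups.

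**Figure D3:**
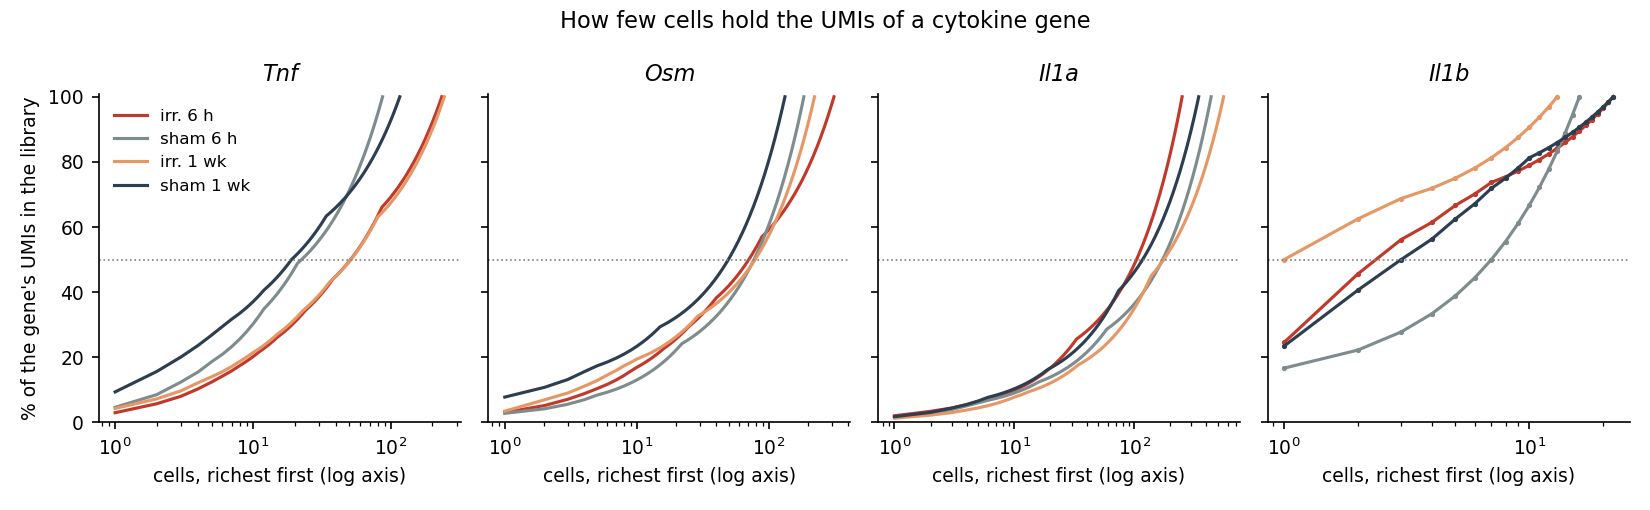
Percent of the UMIs of Tnf, Osm, Il1a and Il1b in a library (vertical axis) held by its fullest cells, added up from the fullest cell on (horizontal log axis), 1 line per library, with a dotted line at 50%. That level took 105 to 177 cells for Il1a but 19 to 52 for Tnf and 1 to 7 for Il1b.

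Tnf was unevenly spread. The variance of its UMIs over cells divided by the mean, near 1 for even sampling, was 3.39 in irradiated and 2.15 in sham cells at 6 h, and 3.78 in irradiated and 5.20 in sham cells at 1 week, where the median of genes with at least 50 UMIs was 1.04 to 1.05. This placed Tnf above 97.5% to 99.3% of those genes in every library. The fullest cell held 13 Tnf UMIs in irradiated and 6 in sham cells at 6 h, and 19 in irradiated and 21 in sham cells at 1 week.

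Osm became more uneven where it was highest. Its ratio of variance to mean was 3.01 in irradiated and 1.33 in sham cells at 6 h, and 2.10 in irradiated and 2.25 in sham cells at 1 week, and 16 irradiated cells at 6 h held 5 or more Osm UMIs, against 1 sham cell. Il1a was closer to even, at 1.25 to 1.54 in the 4 libraries. Il6 stood at 1.01 to 1.23 and Tnfsf9 at 1.12 to 1.16, with no cell above 3 UMIs of either.

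Few cells had UMIs of several of these genes. After thinning, at least 1 of the 7 was found in 22.7% of irradiated and 16.2% of sham cells at 6 h, and in 29.5% of irradiated and 22.4% of sham cells at 1 week. At least 2 were found in 4.22% (3.36 to 5.22) of irradiated and 1.45% (1.02 to 1.99) of sham cells at 6 h, and in 3.58% (2.82 to 4.48) of irradiated and 2.80% (2.00 to 3.81) of sham cells at 1 week. Cells with UMIs of several of these genes were thus a minority of the positive cells in every library. With each gene found in a small share of cells, few such cells can be found at this depth. The minority therefore does not show that the transcripts sit in different cells.

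The share of Tnf-positive cells with an Osm UMI was highest at 6 h after irradiation, where Osm was also most often found in Tnf-negative cells. In that library 24.4% (17.2 to 32.8) of 127 Tnf-positive cells and 8.48% (7.22 to 9.88) of 1769 Tnf-negative cells had an Osm UMI after thinning. In sham cells at 6 h the shares were 11.4% (3.79 to 24.6) and 4.02% (3.28 to 4.86), in irradiated cells at 1 week 7.33% (3.72 to 12.7) and 6.19% (5.15 to 7.37), and in sham cells at 1 week 10.3% (4.24 to 20.1) and 4.15% (3.14 to 5.37), Tnf-positive cells before Tnf-negative ones. The intervals were apart in irradiated cells at 6 h and overlapped in the other 3 libraries. The sham libraries had only 44 Tnf-positive cells at 6 h and 68 at 1 week after thinning, so overlap there does not show a weaker link. Without thinning, Osm CPM was higher in Tnf-positive cells of all 4 libraries. The log2 folds were 1.75 in irradiated and 1.22 in sham cells at 6 h, and 1.07 in irradiated and 1.86 in sham cells at 1 week.

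After thinning, Il1a was found more often in the Tnf-positive cells of 3 libraries. Its share was 18.9% of Tnf-positive and 6.78% of Tnf-negative irradiated cells at 6 h, 27.3% and 9.70% of such sham cells at 6 h, and 26.5% and 13.1% of such sham cells at 1 week. In irradiated cells at 1 week, where Il1a was highest, it was 14.7% (9.43 to 21.4) of Tnf-positive and 16.5% (14.8 to 18.2) of Tnf-negative cells. Summed over cells without thinning, Il1a CPM was higher in the Tnf-positive cells of all 4 libraries, with log2 folds of 0.71 in irradiated and 1.34 in sham cells at 6 h, and of 0.53 (0.25 to 0.80) in irradiated and 1.31 in sham cells at 1 week. After thinning, by Osm it differed less: Il1a was found in 10.5% (6.44 to 15.9) of Osm-positive and 7.29% (6.10 to 8.62) of Osm-negative irradiated cells at 6 h.

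Ccl3 and Ccl4, chemokines of activated macrophages, were the partners found in the largest share of Tnf-positive cells among the genes compared. Ccl3 was found in 71.7% of Tnf-positive and 44.0% of Tnf-negative irradiated cells at 6 h, 36.4% and 16.3% of such sham cells at 6 h, 36.7% and 24.7% of such irradiated cells at 1 week, and 50% and 29.4% of such sham cells at 1 week. Ccl4 was found in 69.3% and 44.1%, 45.5% and 14.9%, 44.0% and 26.7%, and 50% and 26.5% in the same order. For both chemokines the share was higher in Tnf-positive cells of every library.

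**Figure D4:**
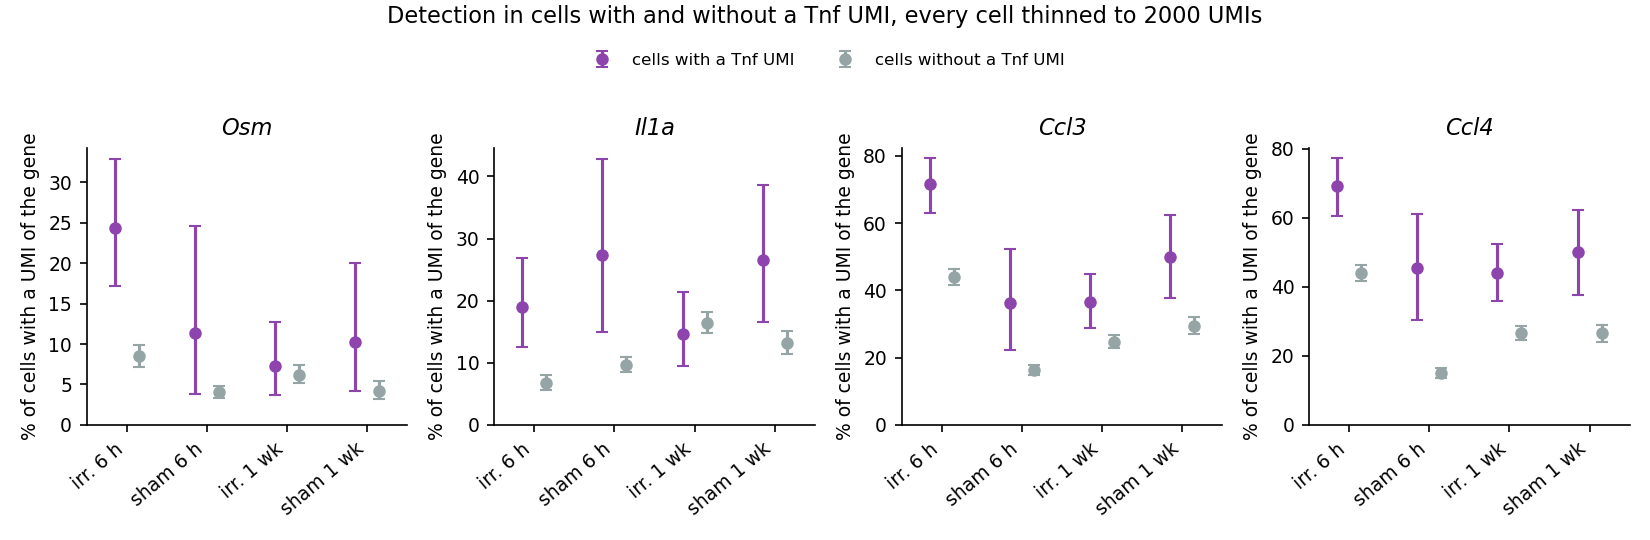
Percent of cells with a UMI of Osm, Il1a, Ccl3 or Ccl4 (vertical axes) among cells with (purple) and without (grey) a Tnf UMI, by library, every cell thinned to 2000 UMIs, with exact 95% intervals. Ccl3 and Ccl4 were higher in Tnf-positive cells of all 4 libraries, while Osm stood at 24.4% against 8.48% in irradiated cells at 6 h and at 7.33% against 6.19% in irradiated cells at 1 week.

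Summed over cells without thinning, the 10 genes of 6269 that were most raised in Tnf-positive over Tnf-negative cells, by their lowest log2 fold among the 4 libraries, were Ccl2, Gadd45b, Nfkbiz, Atf3, Ccl4, Ier3, Ccl3, Ier2, Gem and Ccrl2. They hold 3 chemokines and several stress and immediate early genes. Ccl2, a monocyte-attracting chemokine, had 798 CPM in Tnf-positive and 194 CPM in Tnf-negative irradiated cells at 6 h, and log2 folds of 2.04 to 2.46 over the 4 libraries. Nfkbiz, a nuclear regulator that NF-kB induces, had log2 folds of 1.83 to 2.52, and Atf3, a stress-induced transcription factor, had 1.82 to 2.45.

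Osm ranked 14 in that list, with log2 folds of 1.75 in irradiated and 1.22 in sham cells at 6 h and of 1.07 in irradiated and 1.86 in sham cells at 1 week. The microglia marker P2ry12, a purine receptor of resting microglia, was lower in Tnf-positive than in Tnf-negative cells of every library, with log2 folds of -0.88 in irradiated and -0.55 in sham cells at 6 h, and of -0.30 in both libraries at 1 week. P2ry12 was the most lowered of the 9 microglia markers in each library. In irradiated cells at 6 h, C1qb stood at -0.08 and Ctss at -0.04. Tnf-positive cells were deeper than Tnf-negative ones (a median of 4206 against 3439.5 UMIs in irradiated cells at 6 h, and 4445 against 3518 in sham cells at 6 h), which the CPM scale corrects only for the total.

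**Figure D5:**
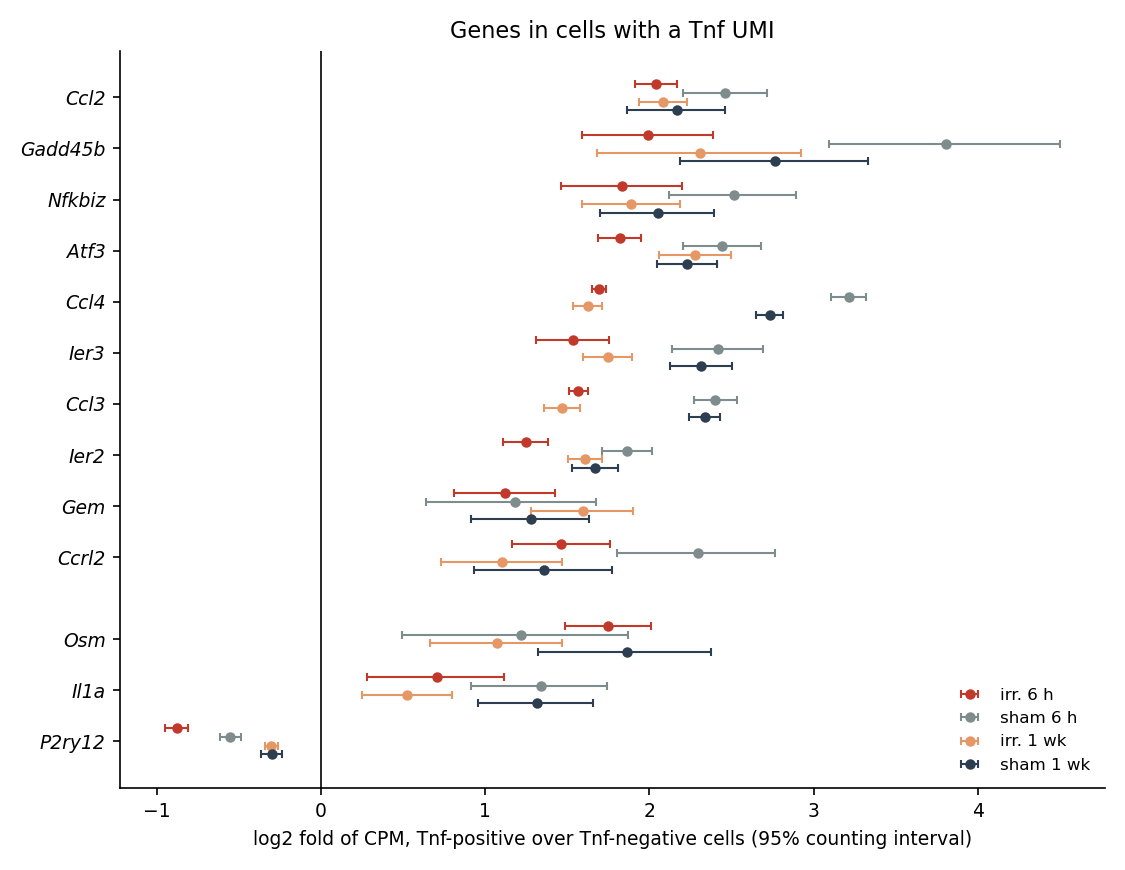
Log2 fold of CPM (horizontal axis) in Tnf-positive over Tnf-negative cells of each library, with exact 95% counting intervals, for the 10 genes most raised in Tnf-positive cells, then Osm, Il1a and the microglia marker P2ry12. The 10 genes were chosen by their lowest log2 fold over these same 4 libraries, at least 1.10, so standing above 1 in each is no separate result. P2ry12 stood between -0.88 and -0.30.

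Over the 4 library totals, the 5 genes of 8561 nearest to Tnf were Tgm2, Plau, Trpm2, Mmp2 and Ccnd1, by the distance between centred log2(CPM + 1) values. With 4 points this is a description only. Tgm2, a transglutaminase, had 19.7 CPM in irradiated and 6.88 CPM in sham cells at 6 h, and 24.2 CPM in irradiated and 11.8 CPM in sham cells at 1 week. None of the 5 was among the 10 genes most raised in Tnf-positive cells. The ranking of Tnf-positive cells required more UMIs per gene than this one, and Tgm2 and Plau had too few to enter it. Their absence from the 10 therefore says nothing about their level in Tnf-positive cells.

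A further list held 36 genes of the TNF and IL-1 superfamilies and of other cytokines outside them, of which 13 were measured. At 6 h 3 rose and 3 fell, where 8.97% of all genes rose and 9.31% fell. Gdf15, a stress cytokine, had 371 CPM in irradiated and 1.95 CPM in sham cells, a log2 fold of 7.57 (6.93 to 8.31). Csf1, the growth factor of microglia, rose with a log2 fold of 1.73 (1.48 to 1.99) and Mif with 1.05 (0.94 to 1.16). Il16, Tnfsf13b and Clcf1 fell by 0.99, 0.89 and 0.89 on the log2 scale. At 1 week 3 rose, Gdf15 among them with a log2 fold of 1.07, and 3 fell, including Csf1 with -0.86 and Tnfsf12, which encodes TWEAK, with -1.26. Of all genes, 4.01% rose and 3.12% fell there. Lta, the neighbour of Tnf that encodes lymphotoxin alpha, and Il10, an anti-inflammatory cytokine, both named after their values were seen, had 0 UMIs in all 4 libraries.

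Of 16 receptors and decoys, 9 were measured at 6 h, where 1 rose and 2 fell. Of all genes, 8.97% rose and 9.31% fell in that comparison. Il6st, which encodes gp130, the signalling subunit for IL-6 and oncostatin M, fell to 38.7 CPM in irradiated cells at 6 h, against 68.9 CPM in sham cells, with a log2 fold of -0.83 (-1.04 to -0.63). It was also lower at 1 week, with 52.9 CPM in irradiated and 80.0 CPM in sham cells (-0.60, -0.79 to -0.40). Over the sham library at 6 h, none of the 8 genes measured, Il6st included, was called in irradiated cells at 1 week. Il18bp, the decoy of IL-18, rose at 6 h on 35 and 19 UMIs (1.28, 0.44 to 2.17), and Il10ra fell by 0.62 on the log2 scale.

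The receptors of the cytokines themselves, named here after their values were seen, differed in being detected at all. Tnfrsf1a had 172 CPM in irradiated and 182 CPM in sham cells at 6 h, and Tnfrsf1b had 243 CPM in irradiated and 212 CPM in sham cells, neither past the threshold at either time. The oncostatin M receptor Osmr had 0 UMIs in all 4 libraries, the IL-1 receptor Il1r1 had 1 or 2 per library, and Tnfrsf9, the receptor of the Tnfsf9 protein, had 0 to 2.

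Of 15 measured genes that process these cytokines, 2 were higher and none lower at 6 h, where 8.97% of all genes were higher and 9.31% lower. Of 13 at 1 week, none was higher and 1 lower, where 4.01% of all genes were higher and 3.12% lower. Rhbdf2, which carries the TNF sheddase ADAM17 to the cell surface, had 17.0 CPM in irradiated and 5.55 CPM in sham cells at 6 h, a log2 fold of 1.61 (1.14 to 2.10). It was one of the genes for which the sham libraries differed, by -2.65 for 1 week over 6 h. Casp4, the inflammatory caspase-11 of mice, fell at 1 week by 0.86 on the log2 scale. Casp4 also differed between the sham libraries, by 0.61 (0.26 to 0.96) for 1 week over 6 h. Over the sham library at 6 h, the 3 genes of this list lower in irradiated cells at 1 week were Rhbdf2, Capn1 and Adam17, not Casp4. Casp1 and Nlrp3, of the inflammasome that matures IL-1 beta and named after their values were seen, stayed under the threshold in each irradiated library over its own sham.

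The genes below the receptors are read against all genes, of which 18.3% were called in either direction at 6 h and 7.13% at 1 week. Of 27 measured receptor signalling genes, 1 rose (Traf3, 0.67) and 1 fell (Traf6, -0.76) at 6 h, and none was called at 1 week. Of 18 NF-kB subunits and feedback genes, Tnfaip2 rose at 6 h with a log2 fold of 0.87. The feedback inhibitors Socs3, Tnfaip3 and Tnip1 fell at 6 h, by 0.84, 0.72 and 0.66 on the log2 scale, and none of the 18 was called at 1 week.

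Among 13 measured genes of cytokine mRNA decay, the endonuclease gene Zc3h12a rose at 6 h with a log2 fold of 0.77 (0.47 to 1.06). Zfp36l2, which encodes a protein that binds AU-rich elements, fell by 1.11. No other gene of the list was called at 6 h, where 8.97% of all genes rose and 9.31% fell. None of 12 was called at 1 week, where 7.13% of all genes were called either way. Zfp36, which encodes tristetraprolin, a protein that destabilises Tnf mRNA, rose in sham cells at 1 week over sham cells at 6 h, with a log2 fold of 0.73 (0.68 to 0.78), as Tnf did.

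The chemokines moved with Tnf, Osm and Tnfsf9 at 6 h. Of 9 measured, 8 rose over the sham library of the same time, and 8 also rose over the sham library at 1 week. The shares of all genes that rose were 8.97% and 11.8% in these comparisons. Ccl4 had 2477 CPM in irradiated and 363 CPM in sham cells at 6 h, a log2 fold of 2.77 (2.72 to 2.82), followed by Cxcl16 with 2.57, Ccl7 with 2.46 and Ccl5 with 2.32. At 1 week 3 rose, Ccl2 (1.36), Ccl7 (1.27) and Ccl12 (1.14), and 3 fell, Cxcl10 (-1.31), Ccl9 (-0.96) and Ccl3 (-0.74). In that comparison 4.01% of all genes rose and 3.12% fell. Over the sham library at 6 h, Ccl2, Ccl7 and Ccl12 again rose and Cxcl10 and Ccl9 again fell. Ccl3 did not fall there, with 433 CPM in irradiated cells at 1 week and 308 CPM in sham cells at 6 h. Ccl4 and Ccl3 rose between the sham libraries as Tnf did, with log2 folds of 1.26 and 1.23 for 1 week over 6 h.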

How the data were processed

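The authors deposited raw counts of UMIs for each gene and barcode; Cell Ranger 2.0 and mm10 are named in the submitters' processing notes. How barcodes were called, and on which annotation, is not given in the sources used here. From 8486 barcodes, 8369 were kept, at 1000 or more UMIs and 500 genes with at most 10% mitochondrial UMIs; the design text states 8095 cells, and the rule behind that number was not used. Cells were not clustered: all kept barcodes of a library were summed, since nearly all carried microglia markers, and 45 barcodes poor in them (under 25% of the library's median share of marker UMIs) were left out as an alternative. Doublets were kept in the main values; Scrublet (scanpy 1.11.5, expected rate 0.06) marked 54 (0.645%).

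CPM was computed over the summed counts of each library. Intervals are exact 95% intervals, Poisson for CPM, conditional binomial for folds and Clopper-Pearson for shares (scipy 1.17.1, numpy 2.4.6, pandas 2.3.3), and cover counting error only. They were tested on data simulated as Poisson counts. Such data lack the uneven spread over cells seen for Tnf and Il1b. The test could therefore not show whether the intervals are too narrow for such genes. Thinning drew 2000 UMIs per cell. A count of 0 was read as at most 3 counts. With 1 library per group no test was made.

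The 7 genes were given by name. Of the other lists, genes were named where they passed 1.5-fold with an interval without 0, up to 4 per list, direction and comparison; genes outside that rule are said to be so or serve as markers. Genes like Tnf needed 200 UMIs over the libraries, or 500 for the comparison of Tnf-positive and Tnf-negative cells. The genes and lists were chosen with earlier results of these data known. Il36g, Il36a, Auf1, Trac, Trbc2, Ighm and Igkc were not matched by symbol. Coordinates came from GENCODE vM21 for 27645 of 27998 identifiers. Of the 7 genes, 5 were in the RefSeq promoter table, and Osm and Tnfsf9 are named only. Alternatives covered the filter on barcodes, doublets, marker-poor barcodes, size factors, the minimum UMIs, the fold, 1 UMI per cell, the thinning depth and the sham library.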

Additional observations from a re-analysis of the deposited data

Results flagged for a closer look

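Il1b and Il1a moved in opposite directions at 6 h and 1 week when each irradiated library was set over the sham library of its own time. For Il1b the log2 fold was 2.07 at 6 h and -1.44 at 1 week, on 57 against 18 UMIs and on 32 against 64 UMIs. For Il1a it was -0.46 at 6 h and 0.30 at 1 week, both under 1.5-fold. With 1 library per group the difference between the times was not tested for either gene.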

How the results depend on the processing

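No paired analysis was possible because each group is 1 library, and for the same reason no replicate could be left out. The sham library had the largest effect. With the sham library of the other time, the log2 fold of Il1b turned to -0.54 at 6 h and to 1.17 at 1 week, and that of Tnf moved to 0.58 at 6 h and 2.12 at 1 week. The number of the 7 genes called then became 2 higher and 1 lower at 6 h, and 6 higher and 0 lower at 1 week. Of all genes, 21.3% and 8.64% were called either way in these comparisons. Requiring 200 UMIs over both libraries left 2 higher at 6 h, 0 higher and 0 lower at 1 week, and 1 higher between the sham libraries. A 2-fold threshold left 0 higher at 1 week, and leaving out Scrublet doublets or using median-of-ratios size factors left 1. The share of all genes called also moved by more than 1.5-fold in all 3 comparisons at the 2-fold threshold. At 200 UMIs it moved so in 2 comparisons and not in 1. It stayed within 1.5-fold for doublets, size factors and 1 UMI per cell. Whether the 7 genes lost calls more than all genes did was not tested. Counting at most 1 UMI of a gene per cell gave a Tnf log2 fold of 1.83 at 6 h, 0 lower at 1 week and 1 higher between the sham libraries. The Il1b folds behind the lost calls stayed past 1.5-fold, with -1.20 at 1 week and 1.24 between the sham libraries, on fewer than the 50 UMIs a call needed. Of 153 log2 folds recomputed, 140 stayed within the interval of the reported value, 11 moved out of it and 2 called values reversed. Leaving out the fullest cell of each library for each gene, an alternative chosen after seeing the data, moved none of 20 log2 folds beyond its interval, and leaving out marker-poor barcodes moved none of 20. Of 56 shares of cells recomputed without thinning or at 1500 UMIs, 34 moved, and of 28 without marker-poor barcodes none did. Genes with under 50 UMIs are limited by depth.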

Other observations

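Within the sham library at 6 h, the p53 target Cdkn1a had 362 CPM in Tnf-positive and 37.7 CPM in Tnf-negative cells, a log2 fold of 3.26 (2.98 to 3.54) on 157 UMIs in 87 Tnf-positive cells. In the sham library at 1 week it had 102 CPM in Tnf-positive and 52.5 CPM in Tnf-negative cells, with a log2 fold of 0.96. In the irradiated libraries the log2 folds were 0.29 at 6 h and 0.42 at 1 week. Other p53 targets did not follow Cdkn1a alike in the sham library at 6 h. Mdm2 (0.08, -0.61 to 0.69) and Ccng1 (0.39, -0.50 to 1.17) had intervals that held 0. Bax stood at 0.43 (0.09 to 0.76), and Phlda3 at 4.42 on 3 UMIs in Tnf-positive cells. Cdkn1a was singled out after its values were seen, and the cells behind the UMIs of the sham library were not examined further. Of the barcode sequences found in more than 1 library, 12 were shared by the irradiated and sham libraries at 6 h.

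The NF-kB target Nfkbia, which encodes the inhibitor IkB alpha, was higher in Tnf-positive than in Tnf-negative cells of every library, with log2 folds of 0.98 in irradiated and 1.88 in sham cells at 6 h and of 1.96 in irradiated and 1.90 in sham cells at 1 week, although its library total stayed within 1.5-fold in each irradiated library over its own sham. Of the 5 NF-kB subunit genes, Nfkb1 had a log2 fold of -0.55 (-0.92 to -0.19) and Relb one of 0.53 (0.02 to 1.02) in irradiated cells at 6 h. Rela (-0.41), Rel (0.31) and Nfkb2 (0.20) had intervals that held 0 there. In irradiated cells at 1 week the 5 lay between -0.23 for Nfkb1 and 0.32 for Rel, each with an interval that held 0. In sham cells, Nfkb2 at 6 h (1.02, 0.07 to 1.84) and Rela at 1 week (-0.94, -1.71 to -0.26) had intervals without 0. These genes were also chosen after their values were seen.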
